A study of Mus musculus with 6 samples.

Results

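Immediate early response genes were examined in kidneys of C57BL/6 mice operated on by a procedure labelled IVCC and of sham-operated ones. The 10 genes were taken by symbol: Fos, Fosb, Jun, Junb, Egr1, Atf3, Ier2, Btg2, Rhob and Zfp36. All 10 were found among the 24346 symbols of the deposited expression table. The series concerns renal congestion and acute kidney injury, and it was profiled as 3 IVCC and 3 Sham libraries of whole-kidney RNA. The labels leave IVCC unexplained and state neither the age of the mice, nor the time after surgery, nor whether each library came from its own mouse, so p-values measure only the spread between these libraries. Values are FPKM (mapped fragments per kilobase of a transcript, relative to all mapped fragments). They are corrected for transcript length, so levels can be compared between genes. Their sum over all symbols ran from 719896 to 927860 in IVCC and from 775720 to 1118260 in Sham, so a comparison between libraries also depends on how the libraries are scaled.

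Immediate early genes are transcribed within minutes of a stimulus, without new protein synthesis, when kinases such as the MAP kinases activate transcription factors already bound at their promoters. Their transcripts decay fast, so their level reports recent stimulation of a cell. Several encode transcription factors: Fos, Fosb, Jun and Junb proteins pair through leucine zippers to form AP-1, and Egr1 is a zinc finger factor. In the kidney they are known to be induced by ischaemia, osmotic and mechanical stress and growth factors, and also by handling of the tissue.

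Of the 7 early response genes abundant enough to test, 0 passed between IVCC and Sham kidneys, and likewise 0 of all 12090 genes tested. The IVCC and Sham values overlapped for all 10 genes. Among all genes tested, only 4.09% had all 3 IVCC values above all 3 Sham values. The mean FPKM was higher in IVCC for 9 of the 10 genes and lower for Fosb. The differences were small for most of them, 1.05-fold to 1.26-fold in the 6 genes with a mean above 5 FPKM, and larger for the scarcer Fos, Egr1 and Atf3, at 2.58-fold, 1.96-fold and 1.75-fold. IVCC replicate 3 held the highest value of 7 of the 10 genes.

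**Figure D1:**
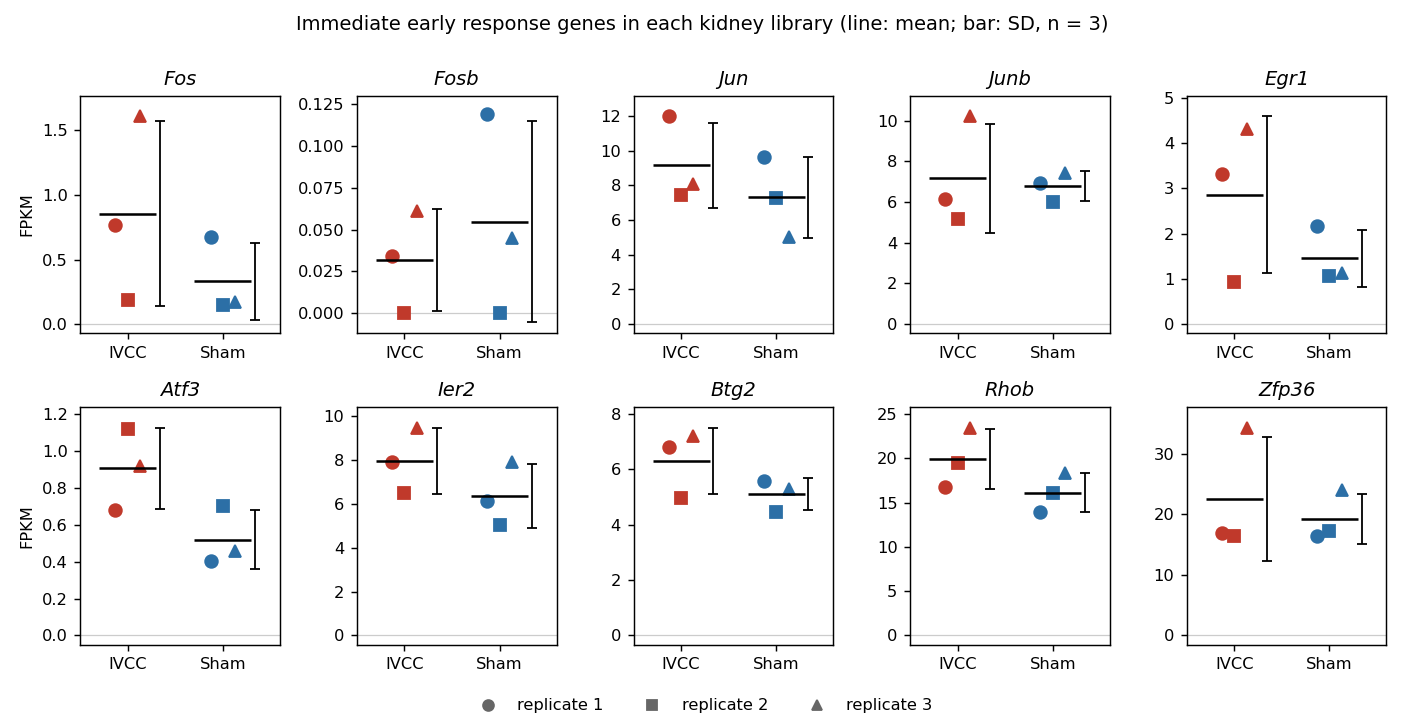
FPKM of the 10 early response genes in each library, 1 panel per gene on its own linear scale, with 3 IVCC libraries on the left and 3 Sham libraries on the right; the line is the group mean and the bar the SD (n = 3). The groups overlap in all 10 panels, and IVCC replicate 3 (triangle) is the highest point in 7.

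The abundance of the genes differed widely. Averaged over the 6 libraries, Zfp36 (20.9 FPKM) and Rhob (18.0 FPKM) were the most abundant. Jun (8.24 FPKM), Ier2 (7.15 FPKM), Junb (6.98 FPKM) and Btg2 (5.71 FPKM) followed, then Egr1 (2.16 FPKM). Atf3 (0.714 FPKM), Fos (0.593 FPKM) and Fosb (0.0432 FPKM) lay below the minimum mean of 1 FPKM that was set for testing, so 7 of the 10 genes were tested. The ranges over the 6 libraries overlapped between neighbours in this order, except that every Rhob value lay above every Jun value, every Btg2 value above every Egr1 value and every Fos value above every Fosb value. Of the 12090 genes tested, 65.9% had a lower mean than Zfp36 and 11.6% a lower mean than Egr1.

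The 250 bases before the annotated start were available for 8 of the 10 genes, all but Egr1 and Ier2, and were searched on both strands for 4 motifs through which early genes are known to be switched on. The sequences below show where the matches lie in the genes whose levels are described next. They are RefSeq sequences of build GRCm38.p6, on the strand of the gene, with the motif in capitals and up to 25 bases on each side. The RefSeq start lies within 35 bases of the GENCODE start of the gene for 6 of the 8. For Zfp36 it lies 1025 bases inside the GENCODE gene whose coordinates are given further on, and for Atf3 34706 bases inside, though 27 and 7 bases from the start of a GENCODE transcript of each. A CRE-like motif, TGACNTCA, was found before Jun and Btg2, and in 7.49% of all 32851 windows of the same length. A CArG box, to which serum response factor binds, was found before the RefSeq start of Zfp36, and in 1.47% of all windows. An EGR motif, GCGNGGGCG, was found before the RefSeq starts of Fosb, Btg2 and Zfp36, and in 4.70% of all windows; the CRE-like and EGR matches of Btg2 do not overlap. The AP-1 motif TGANTCA was found in 0 of the 8 windows and in 6.75% of all windows. A match is a description of the letters and not a shown binding site.
Jun, CRE-like motif, chr4:95052235-95052292, minus strand: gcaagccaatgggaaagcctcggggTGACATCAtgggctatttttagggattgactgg
Btg2, first CRE-like motif, chr1:134079289-134079346, minus strand: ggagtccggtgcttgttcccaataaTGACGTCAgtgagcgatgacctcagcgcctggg
Zfp36, CArG box, chr7:28379252-28379311, minus strand: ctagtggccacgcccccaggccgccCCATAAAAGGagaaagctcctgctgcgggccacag
Zfp36, EGR motif, chr7:28379300-28379358, minus strand: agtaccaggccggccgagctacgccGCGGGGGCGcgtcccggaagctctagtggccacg

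Among the Fos subunits of AP-1, Fos was scarce in every kidney. Fos (chromosome 12, 85473890 to 85477273, plus strand, GRCm38, a transcript of 2108 bases in 4 exons) had 0.767, 0.186 and 1.61 FPKM in IVCC replicates 1 to 3, and 0.676, 0.146 and 0.172 FPKM in Sham replicates 1 to 3. IVCC replicate 3 stood above all others, while IVCC replicate 2 lay with the lowest Sham libraries. FPKM carry no read totals, but the steps between low values gave a nominal size for each library, and with it nominal reads per gene. By that measure Fos rested on 12, 3 and 28 reads in IVCC, and on 9, 2 and 2 reads in Sham. The 28 reads of IVCC replicate 3 have an exact 95% Poisson interval of 18.6 to 40.5, and the 9 reads of Sham replicate 1 one of 4.12 to 17.1, for counting error only. Mean Fos was 0.854 ± 0.715 FPKM for the IVCC libraries, against 0.331 ± 0.299 FPKM for the Sham libraries (SD, n = 3 per group), so the group difference was within the spread of the IVCC libraries. The difference of mean log2(FPKM + 1) was 0.43, and it was 0.14 without IVCC replicate 3, 0.06 without both libraries numbered 3, and 0.71 without IVCC replicate 2.

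Fosb was close to absent at this depth. Fosb (chromosome 7, 19302696 to 19310051, minus strand) was listed at 0.034, 0 and 0.061 FPKM in IVCC replicates 1 to 3, and at 0.119, 0 and 0.045 FPKM in Sham replicates 1 to 3. These values correspond to 1, 0 and 2 nominal reads in IVCC and to 3, 0 and 1 in Sham, too few to compare the groups. Its difference of mean log2(FPKM + 1) was -0.03, and it was 0.01 without Sham replicate 1, -0.01 without IVCC replicate 2, and between -0.07 and -0.03 without each of the other libraries.

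The Jun subunits were expressed at moderate levels. Jun (chromosome 4, 95049034 to 95052222, minus strand, 1 exon) can pair with itself as well as with Fos proteins. It had 11.98, 7.44 and 8.11 FPKM in IVCC replicates 1 to 3, and 9.66, 7.26 and 5.002 FPKM in Sham replicates 1 to 3. The highest value was IVCC replicate 1 and the lowest Sham replicate 3, with the other 4 libraries interleaved. Mean Jun was 9.18 ± 2.45 FPKM for the IVCC libraries, against 7.31 ± 2.33 FPKM for the Sham libraries (SD, n = 3 per group). Its log2 fold change was 0.31 with a standard error of 0.24 (limma, adjusted p = 0.924). It was 0.09 without Sham replicate 3, 0.16 without both libraries numbered 3, 0.12 without IVCC replicate 1 and 0.51 without Sham replicate 1.

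Junb (chromosome 8, 84974484 to 84978718, minus strand), which can antagonise Jun at some promoters, had 6.13, 5.15 and 10.2 FPKM in IVCC replicates 1 to 3. In Sham replicates 1 to 3 it had 6.95, 5.99 and 7.44 FPKM. Apart from IVCC replicate 3, every IVCC value lay among or below the Sham values. The means were 7.17 ± 2.69 FPKM for the IVCC libraries and 6.79 ± 0.739 FPKM for the Sham libraries (SD, n = 3 per group), with a log2 fold change of 0.02. Its direction turned round to -0.23 when IVCC replicate 3 was left out, to -0.17 without both libraries numbered 3, to -0.05 without Sham replicate 2 and to -0.02 after quantile normalization. The submitters' use of strand in quantification is not given in the sources used here, and exons of Prdx2 on the opposite strand share 173 bases with longer Junb transcripts, though none with its basic transcript of 1809 bases. Exons of opposite-strand genes also share 232 bases with Jun (Junos) and 125 with Zfp36 (Gm44710).

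Atf3, a stress-induced bZIP factor that pairs with Jun proteins, overlapped only slightly between the groups. Atf3 (chromosome 1, 191170296 to 191218039, minus strand) had 0.682, 1.12 and 0.919 FPKM in IVCC replicates 1 to 3, and 0.401, 0.701 and 0.458 FPKM in Sham replicates 1 to 3. Only the lowest IVCC and the highest Sham library were out of order, as was also the case for Rhob and Ier2. The means were 0.908 ± 0.220 FPKM for the IVCC libraries and 0.520 ± 0.159 FPKM for the Sham libraries (SD, n = 3 per group). The values rested on 10, 17 and 15 nominal reads in IVCC, and on 5, 9 and 5 in Sham. Summed over libraries these were 42 reads in IVCC (exact 95% Poisson interval 30.3 to 56.8) and 19 in Sham (11.4 to 29.7), from nominal library sizes that were also larger in IVCC. The intervals are for counting error only and leave out the spread between libraries, so they do not test the group difference. The difference of mean log2(FPKM + 1) was 0.33, and it lay between 0.25 and 0.41 with each library left out in turn. Without a filter on low values limma gave Atf3 an adjusted p of 0.916, the same as it gave Fos.

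Egr1, the zinc finger factor of the group, had the largest fold change among the 7 genes tested and also the widest error. It had 3.33, 0.937 and 4.31 FPKM in IVCC replicates 1 to 3, and 2.18, 1.06 and 1.13 FPKM in Sham replicates 1 to 3. IVCC replicates 1 and 3 lay above every Sham value, whereas IVCC replicate 2 was the lowest library of all 6. Mean Egr1 was 2.86 ± 1.73 FPKM for the IVCC libraries, against 1.46 ± 0.627 FPKM for the Sham libraries (SD, n = 3 per group). The log2 fold change was 0.56 with a standard error of 0.38 and a 95% interval of -0.32 to 1.43 (limma, adjusted p = 0.924). It was 0.27 without IVCC replicate 3, 0.18 without both libraries numbered 3 and 0.99 without IVCC replicate 2.

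The remaining genes act outside AP-1. Ier2 encodes a nuclear early response protein, and Btg2 an antiproliferative protein that recruits the deadenylase machinery. Ier2 (chromosome 8, 84661331 to 84662852, minus strand) had 7.89, 6.49 and 9.48 FPKM in IVCC replicates 1 to 3, and 6.15, 5.03 and 7.89 FPKM in Sham replicates 1 to 3. Only IVCC replicate 3 lay clearly above every Sham library. Mean Ier2 was 7.95 ± 1.497 FPKM for the IVCC libraries, against 6.36 ± 1.44 FPKM for the Sham libraries (SD, n = 3 per group); log2 fold change 0.29, standard error 0.18. Btg2 (chromosome 1, 134075170 to 134079120, minus strand), before which both CRE-like and EGR motifs lie, had 6.80, 4.95 and 7.19 FPKM in IVCC replicates 1 to 3, and 5.57, 4.45 and 5.30 FPKM in Sham replicates 1 to 3. IVCC replicates 1 and 3 were above every Sham value, and IVCC replicate 2 was below the 2 higher ones. The means were 6.31 ± 1.20 FPKM for the IVCC libraries and 5.11 ± 0.582 FPKM for the Sham libraries (SD, n = 3 per group); log2 fold change 0.25, standard error 0.16. The fold change of Ier2 was 0.17 without IVCC replicate 3, 0.15 without Sham replicate 2 and 0.43 without Sham replicate 3. That of Btg2 was 0.16 without IVCC replicate 3 and 0.39 without IVCC replicate 2.

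Rhob, an early-induced small GTPase of the actin cytoskeleton and endosomes, had the smallest p-value of the 7 genes, at 0.108 before adjustment (limma). Rhob (chromosome 12, 8497661 to 8500009, minus strand, 1 exon) had 16.8, 19.5 and 23.5 FPKM in IVCC replicates 1 to 3, and 14.0, 16.1 and 18.4 FPKM in Sham replicates 1 to 3. Of the Sham values, only that of replicate 3 lay above an IVCC value. Mean Rhob was 19.9 ± 3.37 FPKM for the IVCC libraries, against 16.1 ± 2.2004 FPKM for the Sham libraries (SD, n = 3 per group) and a log2 fold change of 0.28 with a 95% interval of -0.08 to 0.65. It was 0.16 without IVCC replicate 3. Zfp36 (chromosome 7, 28376784 to 28380253, minus strand) encodes tristetraprolin, which binds AU-rich elements and speeds decay of cytokine and early response transcripts. It had 16.8, 16.3 and 34.3 FPKM in IVCC replicates 1 to 3, and 16.5, 17.2 and 24.0 FPKM in Sham replicates 1 to 3. The libraries numbered 3 of both groups stood apart, and the other 4 lay within 1 FPKM of each other. The means were 22.5 ± 10.2 FPKM for the IVCC libraries and 19.2 ± 4.18 FPKM for the Sham libraries (SD, n = 3 per group). The log2 fold change of 0.15 turned round to -0.18 without IVCC replicate 3 and to -0.02 without both libraries numbered 3, and it lay between 0.06 and 0.33 without each of the other libraries.

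**Figure D2:**
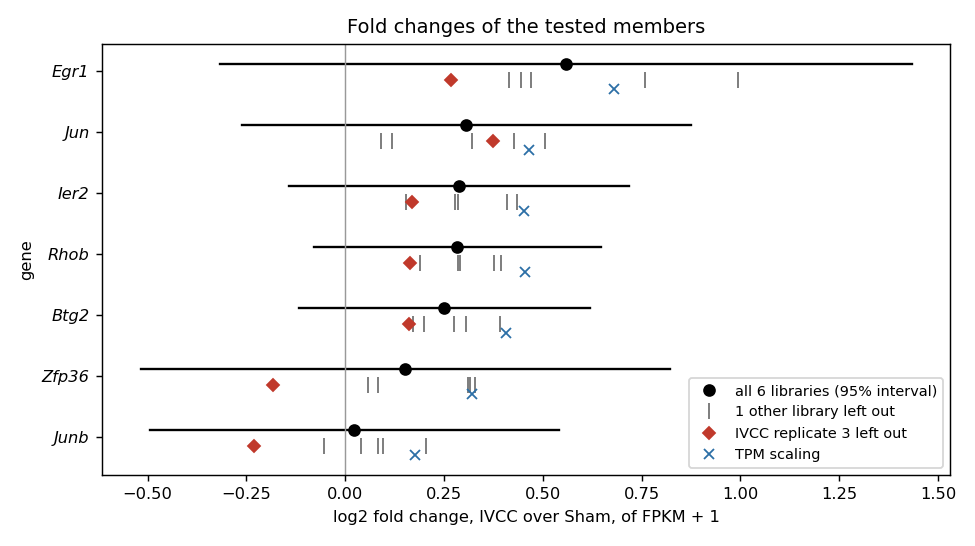
Log2 fold changes of IVCC over Sham, of FPKM + 1, for the 7 genes tested: black points with 95% intervals (limma) from all 6 libraries, grey ticks with 1 other library left out, red diamonds without IVCC replicate 3, blue crosses after scaling to TPM. All 7 intervals include 0, and the diamonds of Zfp36 and Junb lie below 0.

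Of the 7 genes tested, 0 were called at a limma adjusted p under 0.05, and 0 had an unadjusted p under 0.05 in the fit without a replicate block. Among all 12090 genes tested, 0% were called, and 431 had an unadjusted p under 0.05. The adjusted p-values were 0.924 for Jun, Egr1, Ier2, Btg2 and Rhob, 0.936 for Zfp36 and 0.987 for Junb. The fitted fold change was above 0 for all 7, against 48.4% of all genes tested. The median was 0.28, against -0.01 over all genes tested, and 0.16 without IVCC replicate 3, 0.17 without Sham replicate 2 and 0.18 without both libraries numbered 3. The values of all 3 IVCC libraries lay above all 3 Sham values for 0 of the 7 genes, against 4.09% of all genes tested. Scaling to TPM gave 3 such genes, Rhob, Btg2 and Ier2 (5.91% of all genes), and raised the median of the 7 to 0.45, while it moved the median of all genes tested to 0.15. TPM divides by library sums to which Kap, the most abundant kidney transcript, contributes 10.96% to 13.1% in IVCC and 12.96% to 16.6% in Sham. How much of the shift under TPM comes from Kap was not tested. In bulk RNA, a smaller number of expressing cells and less RNA per cell cannot be told apart.

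The mean of the 7 tested early response genes varied more among the IVCC libraries than between the group means. For Rhob, Ier2 and Btg2 taken singly, the group means in FPKM lay slightly farther apart than the SD of the IVCC libraries. Relative to its own mean over the 6 libraries, the mean of the 7 tested genes on the log2(FPKM + 1) scale was 0.15, -0.21 and 0.46 in IVCC replicates 1 to 3. For Sham replicates 1 to 3 it was -0.06, -0.26 and -0.08. The median deviation of all genes tested stayed between -0.03 and 0.04 in the same 6 libraries. That median shows a shift common to a library, and not how far single genes or small sets of genes deviated. Jun went its own way: it was highest in IVCC replicate 1, where Zfp36 was 0.24 below its mean, and lowest in Sham replicate 3, where Zfp36 was 0.25 above it. Over the 6 libraries, Pearson's r between pairs of the 7 genes had a median of 0.63 over 21 pairs, from -0.35 for Jun with Zfp36 to 0.95 for Egr1 with Btg2, and 0.92 for Junb with Zfp36. These correlations describe 6 libraries that share 2 groups and their depth.

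**Figure D3:**
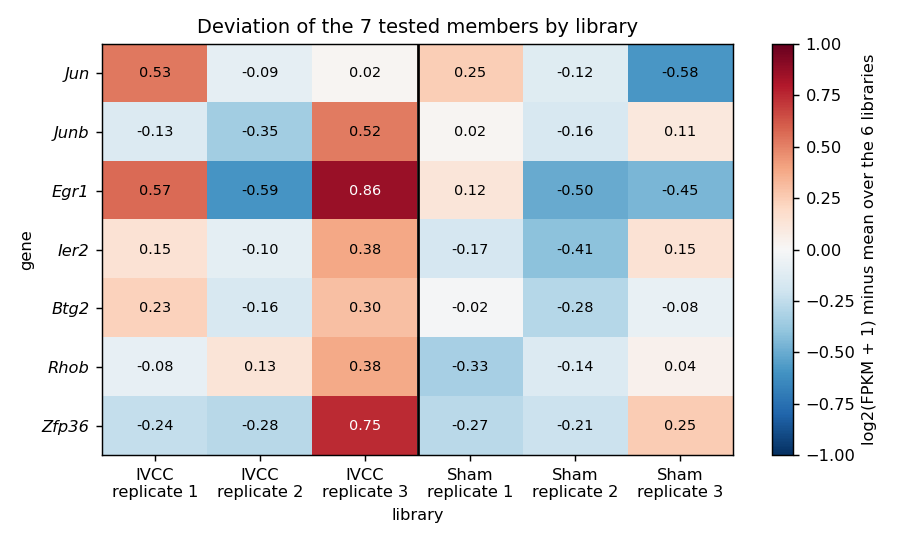
Deviation of each tested gene in each library from its own mean over the 6 libraries, on the log2(FPKM + 1) scale, IVCC libraries left of the line and Sham libraries right of it. IVCC replicate 3 is above the mean for all 7 genes, replicates 2 of both groups are mostly below it, and Jun follows a different order.

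IVCC replicate 3 also had the largest nominal library of the 6, at 9160000 reads. Sham replicate 3, where Zfp36 was the highest of the Sham libraries and Jun the lowest, had the smallest, at 6120000. The summed FPKM of 9 listed heat shock and chaperone genes was 2205, 2108 and 2614 in IVCC replicates 1 to 3 and 2455, 2446 and 3040 in Sham replicates 1 to 3. Hspa8 alone made up 90.0% to 92.8% of it, and the sum of the other 8 was 158, 155 and 209 FPKM in IVCC replicates 1 to 3 and 230.3, 245 and 276 FPKM in Sham replicates 1 to 3. Both sums were highest in the library numbered 3 of each group, as were 5 of the 9 genes (Hspa8, Cryab, Hspa1a, Hspa1b and Dnajb1); the other 4, among them Hsph1 and Hspa4l, were not. Of these 9 genes 0 were called, 2 had a fold change above 0 and 7 below. Most of the group gap in the sum without Hspa8 came from Cryab. It had 56.6, 51.8 and 97.3 FPKM in IVCC replicates 1 to 3, and 117, 138 and 162 FPKM in Sham replicates 1 to 3. Its log2 fold change was -1.05 (limma, adjusted p = 0.924), while those of the other heat shock genes lay between -0.24 and 0.14. Endothelial markers summed to 85.3 to 94.9 FPKM in IVCC and 76.2 to 84.0 FPKM in Sham, with 5 of 5 fold changes above 0. Immune markers summed to 31.8 to 38.2 FPKM in IVCC and 21.5 to 23.4 FPKM in Sham, with 5 of 6 tested above 0. Both marker sums were lowest of the IVCC libraries in replicate 3, as were Kdr, Tek, Emcn, Adgre1, Ptprc, S100a8 and Cd3e. Pecam1, S100a9 and Cd79a were instead highest there among the IVCC libraries. Cdh5, Lyz2 and Cd68 were lowest in other IVCC libraries. The smooth muscle markers Acta2, Myh11 and Tagln summed to 21.1 to 46.5 FPKM in IVCC and 38.2 to 52.4 FPKM in Sham, with 3 of 3 fold changes below 0. Of the fibroblast and pericyte markers, Col1a1 had 2.885 to 3.01 FPKM in IVCC and 1.299 to 2.15 FPKM in Sham, and Pdgfrb had 5.94 to 6.81 FPKM in IVCC and 2.74 to 4.896 FPKM in Sham. Neither overlapped between groups (log2 fold change 0.54 for both, limma adjusted p = 0.924), whereas Dcn did. Every IVCC value lay above every Sham value in 4.09% of all genes tested. Red cell markers summed to 59.7 to 108.9 FPKM in IVCC and 84.7 to 115.0 FPKM in Sham. Of these Hbb-bs was erratic, at 0.008 to 15.8 FPKM in IVCC and 0.007 to 21.0 FPKM in Sham. Urothelial markers summed to at most 1.96 FPKM in IVCC, and to 11.2 FPKM in Sham replicate 3 against 0.926 and 3.13 FPKM in the other 2. Of the 4 fat markers Adipoq, Plin1 and Cfd were listed at 0 in every library, and Cidec reached at most 0.145 FPKM in IVCC and 0.095 FPKM in Sham. Of the 4 adrenal markers Cyp11b1 and Cyp11a1 were listed at 0 in every library. Star had 0.627 to 1.198 FPKM in IVCC and 0.858 to 1.16 FPKM in Sham, and Cyp21a1 had 0.07, 0 and 0.063 FPKM in IVCC replicates 1 to 3 and 0 in every Sham library. The part of these cell types, of heat shock and of depth in the early response values was not tested. All 10 kidney markers passed the minimum, among them the proximal tubule transporter gene Slc34a1, at 2377 to 2576 FPKM in IVCC and 2131 to 2258 FPKM in Sham.

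The wider early response was examined through 8 lists, 1 for each role, and limma called 0 of their tested genes in either direction. An unadjusted p under 0.05 was reached by 5 of them, Jdp2, Ctgf, Irf1, Thbs1 and Icam1, each higher in IVCC. That was 1 of 11 tested bZIP relatives, 2 of 29 other early response genes and 2 of 12 AP-1 and Egr1 targets. The remaining lists had 0, and 3.56% of all genes tested reached it. Among the bZIP relatives 7 of 11 tested genes had a fold change above 0, with a median of 0.03. The repressor gene Jdp2, whose protein pairs with Jun proteins, stood out in that list. It had 2.50, 2.33 and 3.77 FPKM in IVCC replicates 1 to 3, and 1.47, 1.22 and 1.44 FPKM in Sham replicates 1 to 3. All 3 IVCC values lay above the Sham values, as they did for 4.09% of all genes tested. The fitted log2 difference was 0.68, standard error 0.17 (limma, adjusted p = 0.924). Atf7, a bZIP factor related to Atf2, had a log2 fold change of 0.20, and Jund, the remaining Jun gene, one of -0.14. Fosl1 was listed at 0 in every library. Of the Egr relatives Egr2 and Egr3 stayed below 0.3 FPKM and Egr4 was listed at 0, while the corepressor genes Nab2 and Nab1 had log2 fold changes of 0.07 and -0.002.

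Of the 36 other early response genes 29 were tested. The fold change was above 0 for 21 and below for 8, with a median of 0.07. All 3 IVCC values lay above the Sham values for 3 of the 29, against 4.09% of all genes tested. Ctgf, a matricellular protein gene, had 30.1, 36.0 and 44.4 FPKM in IVCC replicates 1 to 3, and 21.6, 23.2 and 22.7 FPKM in Sham replicates 1 to 3, without overlap. The interferon-linked factor gene Irf1 had 11.5, 13.3 and 9.08 FPKM in IVCC replicates 1 to 3, and 8.23, 8.78 and 5.79 FPKM in Sham replicates 1 to 3, also without overlap. Its order differed from that of the early response genes, since IVCC replicate 3 was its lowest IVCC library. Plk2, a polo-like kinase gene, had a log2 fold change of -0.23.

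Of the MAP kinase phosphatases, which switch off the kinases that induce early genes, 4 of 8 were tested. Dusp1 had 13.5, 16.6 and 43.3 FPKM in IVCC replicates 1 to 3, and 14.1, 15.4 and 30.1 FPKM in Sham replicates 1 to 3. As with Zfp36, the libraries numbered 3 of both groups were high and the other 4 alike. The log2 fold change of Dusp1 was 0.19 with a standard error of 0.44, and it turned round to -0.31 without IVCC replicate 3 and to -0.01 without Sham replicate 1. Dusp4 and Dusp6 had log2 fold changes of 0.20 and 0.03, and of -0.04 and -0.03 without IVCC replicate 1. Among the kinases and factors upstream 14 of 18 tested genes were above 0, with a median of 0.09. Map2k1, a kinase that activates ERK, had 24.1 to 25.2 FPKM in IVCC and 21.2 to 22.7 FPKM in Sham, a log2 fold change of 0.16. The serum response factor partners Elk4 and Elk3 had log2 fold changes of 0.33 and 0.14.

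No paralog or known target passed the test. Of the relatives of Btg2, Zfp36 and Rhob, 6 of 9 tested were above 0, with a median of 0.07. Those with the smallest p-values were Rnd3, Btg3 and Btg1, at log2 fold changes of 0.13, 0.37 and 0.07. Btg3 had 2.75, 1.36 and 0.8 FPKM in IVCC replicates 1 to 3, and 0.003, 1.15 and 2.41 FPKM in Sham replicates 1 to 3. The value of 0.003 FPKM can be a failed estimate, and without Sham replicate 1 the fold change of Btg3 turned round to -0.11. Of the 11 cytokine and other transcripts that the Zfp36 protein is known to bind, only Ccl2 and Ier3 were abundant enough to test. Their median log2 fold change was 0.37, from 0.55 for Ccl2 and 0.19 for Ier3. With each library left out in turn, that of Ccl2 lay between 0.18 and 0.75 and that of Ier3 between -0.03 and 0.52. Ccl2 had 1.21, 1.56 and 1.63 FPKM in IVCC replicates 1 to 3, and 1.19, 1.15 and 0 FPKM in Sham replicates 1 to 3; the value of 0 can be a failed estimate. Ier3 had 48.3, 30.2 and 30.7 FPKM in IVCC replicates 1 to 3, and 50.3, 24.5 and 24.2 FPKM in Sham replicates 1 to 3, highest in replicate 1 of each group. Of the known targets of AP-1 and Egr1, 10 of 12 tested were above 0, with a median of 0.15. Thbs1, which encodes thrombospondin 1, had 6.93 to 8.01 FPKM in IVCC and 4.34 to 6.005 FPKM in Sham, a log2 fold change of 0.39. The adhesion gene Icam1 and the cyclin gene Ccnd1 had log2 fold changes of 0.32 and 0.26.

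**Figure D4:**
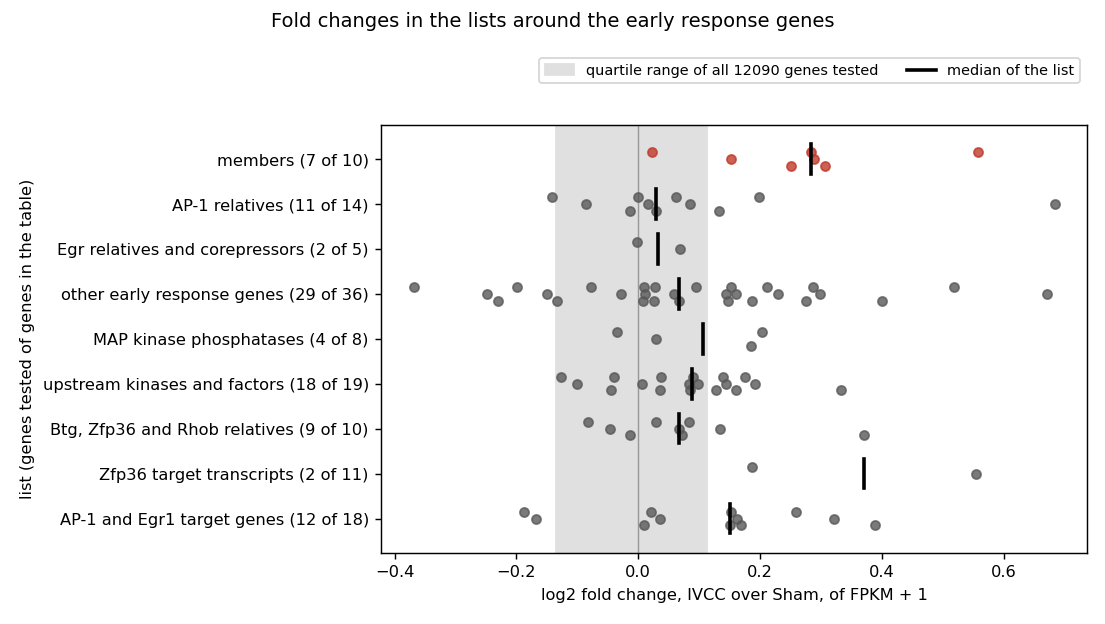
Log2 fold change of IVCC over Sham, of FPKM + 1, for every tested gene of each list (1 point per gene); the thick line is the list's median and the grey band the range from the lower to the upper quartile of all 12090 genes tested. The median of the early response members is 0.28, and those of the next 6 lists lie between 0.03 and 0.11. The median is 0.37 for the 2 tested Zfp36 targets and 0.15 for the AP-1 and Egr1 targets. Jdp2 and Ctgf lie farthest to the right.

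The genes whose levels followed the early response genes most closely over the 6 libraries were Grn, Stx6, Efemp2, Scarf2 and Homer3, with Pearson's r of 0.99, 0.98, 0.97, 0.97 and 0.97 against the mean deviation of the 7 tested genes. They were picked from 11379 candidates, of which 43 had an r above 0.9, so high values over 6 libraries are partly the result of picking. Grn, the progranulin gene, had 85.0, 77.3 and 91.6 FPKM in IVCC replicates 1 to 3, and 79.6, 74.4 and 80.7 FPKM in Sham replicates 1 to 3. Efemp2, an elastic fibre protein gene, had 4.38, 3.81 and 5.38 FPKM in IVCC replicates 1 to 3, and 3.68, 3.47 and 3.97 FPKM in Sham replicates 1 to 3. Both were highest in IVCC replicate 3 and lowest in Sham replicate 2, and their groups overlapped.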

How the data were processed

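Stranded mRNA libraries of kidney RNA were read from 1 end over 75 bases, per the labels' protocols. The authors deposited FPKM for 24346 symbols, 1 column per library. The submitters' processing notes name Cufflinks 2.2.1, TopHat2 2.0.13, SAMtools 0.1.19 and Bowtie2 2.2.3 with build mm10 and give no roles; annotation and scaling are not given in the sources used. FPKM were taken as log2(FPKM + 1), which understates changes of low genes. Genes averaging 1 FPKM or more (12090) were tested two-sided by limma 3.58.1 under R 4.3.3 (mean-variance trend, Benjamini-Hochberg adjustment over all of them, threshold 0.05). The fit was tested on simulated data. With 3 libraries a group, the smallest p of an exact permutation test is 0.1, so none was used.

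True depth is unknown. Nominal library sizes are those at which most low values (0.02 to 0.3 FPKM; transcripts of 1500 to 5000 bases; assumed fragments of 200 bases) became whole reads within 0.1: 8210000 to 9160000 in IVCC and 6120000 to 7180000 in Sham, with 73.7% to 77.3% of values whole, too few for a count test. Gene coordinates are from GENCODE M21 (GRCm38, the assembly that mm10 names).

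The members and lists were chosen with earlier results of these data known. The text names all members, the 3 tested genes of each early response list with the smallest p, and the 5 genes most correlated with the members, without predicted and small RNA genes; genes listed near or at 0, the heat shock and marker lists and Slc34a1 were added after their values were seen. Other settings were pseudocounts of 0.1 and 5, no filter and 5 FPKM, TPM, median ratio and quantile scaling, no variance trend, the replicate number as a block, and libraries left out.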

Additional observations from a re-analysis of the deposited data

How the results depend on the processing

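No early response gene was called under any of the 16 alternatives, and Jun, Egr1, Ier2, Btg2 and Rhob kept a fold change above 0 in each that tested them. The direction of Junb turned to -0.0193 after quantile normalization, -0.231 without IVCC replicate 3, -0.0534 without Sham replicate 2 and -0.171 without the libraries numbered 3 of both groups; with 1 library left out it ranged up to 0.203. That of Zfp36 turned to -0.183 without IVCC replicate 3, with up to 0.329 for other libraries, and -0.0196 without those libraries. The cause was not tested. Genes whose groups did not overlap numbered 3 after scaling to TPM, 2 without the libraries numbered 3 of both groups (against 20.4% of all genes tested with every IVCC value above every Sham value), and 0 to 3 with 1 library left out, where fewer libraries make overlap rarer: 1 without IVCC replicate 1 (6.33% of all genes), 3 without IVCC replicate 2 (6.07%), 0 without IVCC replicate 3 (15.5%), 1 without Sham replicate 1 (7.74%), 0 without Sham replicate 2 (9.62%) and 2 without Sham replicate 3 (8.31%). Of all genes tested, 0 to 4 genes were called with 1 library left out and 4 without the libraries numbered 3 of both groups. The labels do not say what the replicate numbers share. Same-numbered libraries deviated together for numbers 2 and 3 (r over genes of 0.34 and 0.32) and not for number 1 (-0.11). Different-numbered ones had r of -0.36 and -0.37 between numbers 2 and 3, and at most 0.07 otherwise. Deviations were taken from the group means, so these values are not independent of each other. Whether the numbers mark a shared batch or day is therefore undecided, and the unblocked fit was kept. With the replicate block 0 genes were called, the median of the 7 genes was 0.28, and 2388 genes (19.8%) had an unadjusted p under 0.05, against 431 without it. Of the 7 genes, 4 did so with the block and 0 without it: Rhob, Ier2, Btg2 and Jun, at unadjusted p of 0.00765, 0.0132, 0.0391 and 0.0489 (limma adjusted p 0.127, 0.148, 0.226 and 0.250). Fos, Fosb and Atf3 rest on 0 to 28 nominal reads per library, which limits what they can show.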
